A study of Mus musculus with 34 samples.

Results

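The small molecule SPB00858, coded Maybridge_143_I12 in the sample labels, was 1 of 27 compounds profiled by RNA-seq, and its library was 1 of 34 in all. It was compared with the 3 libraries of cells that received DMSO only, labelled A, B and C. The cells were N2A, the mouse Neuro-2a neuroblastoma line, and every library in the comparison was made from polyA RNA after 24 h in 0.4% DMSO, with SPB00858 at 20 µM in the treated library. The study had searched compound libraries with luciferase reporters of a Mef2d microexon for molecules that shift the splicing of neuronal microexons, and it placed SPB00858 among its inhibitors, with no target given. Of the 401633 splicing events in the deposited table, 197385 passed the coverage filters in the SPB00858 library and in at least 2 of the DMSO libraries and could be compared. The study's methods call its DMSO and HDAC inhibitor samples biological replicates, and the SPB00858 library has no replicate, so its values have no error of their own beyond read counting.

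Microexons are very short exons that add only a few residues to a protein, often at a surface used for binding other proteins. In neurons most of them are spliced in by the SR-related protein SRRM4 (nSR100), with SRRM3 as a related activator, and many lie in genes for vesicle traffic, the cytoskeleton, adhesion and chromatin. Their inclusion is measured as percent spliced in (PSI), the share of transcripts of the gene region that contain the exon, here from reads over exon junctions.

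The SPB00858 library held 49123479 reads over exon events (inclusion plus exclusion reads), and DMSO libraries A, B and C held 75978445, 66602104 and 37427027. Over all 34 libraries the range was 33489970 to 75978445, with a median of 49743250. N2A identity was checked on 9 neuroblastoma markers, of which 7 were above 5 RPKM (reads scaled to transcript length and library size) with SPB00858, among them Hand2 at 248.01 and Tubb3 at 437.23 RPKM. The dopamine synthesis gene Th was at 1.57 RPKM in DMSO and 1.76 with SPB00858. The summed level of the 9 markers was 1150.86 RPKM in DMSO and 1228.64 with SPB00858, whereas 8 markers of fibroblasts, leukocytes, epithelium, astrocytes, endothelium and oligodendrocytes summed to 1.23 and 1.7 RPKM, with 0 of 8 above 1 RPKM.

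In the single SPB00858 library, more microexons were called decreased than in any comparison among DMSO libraries. Calls were not confined to microexons, since decreased cassette exons and 5′ splice sites were also above the DMSO ranges, as given further on. To be called, an event had to lie 10 PSI or more from the DMSO mean, with a posterior above 0.95 that the libraries differ, computed from the event's reads. Of 605 detected microexons (exons of up to 27 nt), 25 were called decreased (4.13%) and 7 increased (1.16%). When each DMSO library was compared with the other 2 by the same rule, 8 to 9 microexons were called decreased (1.25 to 1.42%) and 7 to 10 increased (1.19 to 1.57%), and SPB00858 against 2 DMSO libraries at a time, the like comparison, gave 27 to 32 decreased and 5 to 10 increased. Only the decreased counts were above all of those among DMSO libraries. All 25 decreased and all 7 increased microexons lay outside the range of the DMSO libraries. The rule, which asks for 10 PSI from the mean of these same libraries, largely sets this outcome. Among called exons of more than 27 nt, 413 of 417 decreased and 174 of 181 increased lay outside that range too. With 1 library against 3, an exact permutation test on a single exon cannot go below p = 0.5 two-sided or 0.25 one-sided, so the calls compare these libraries on their reads and not the conditions.

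**Figure D1:**
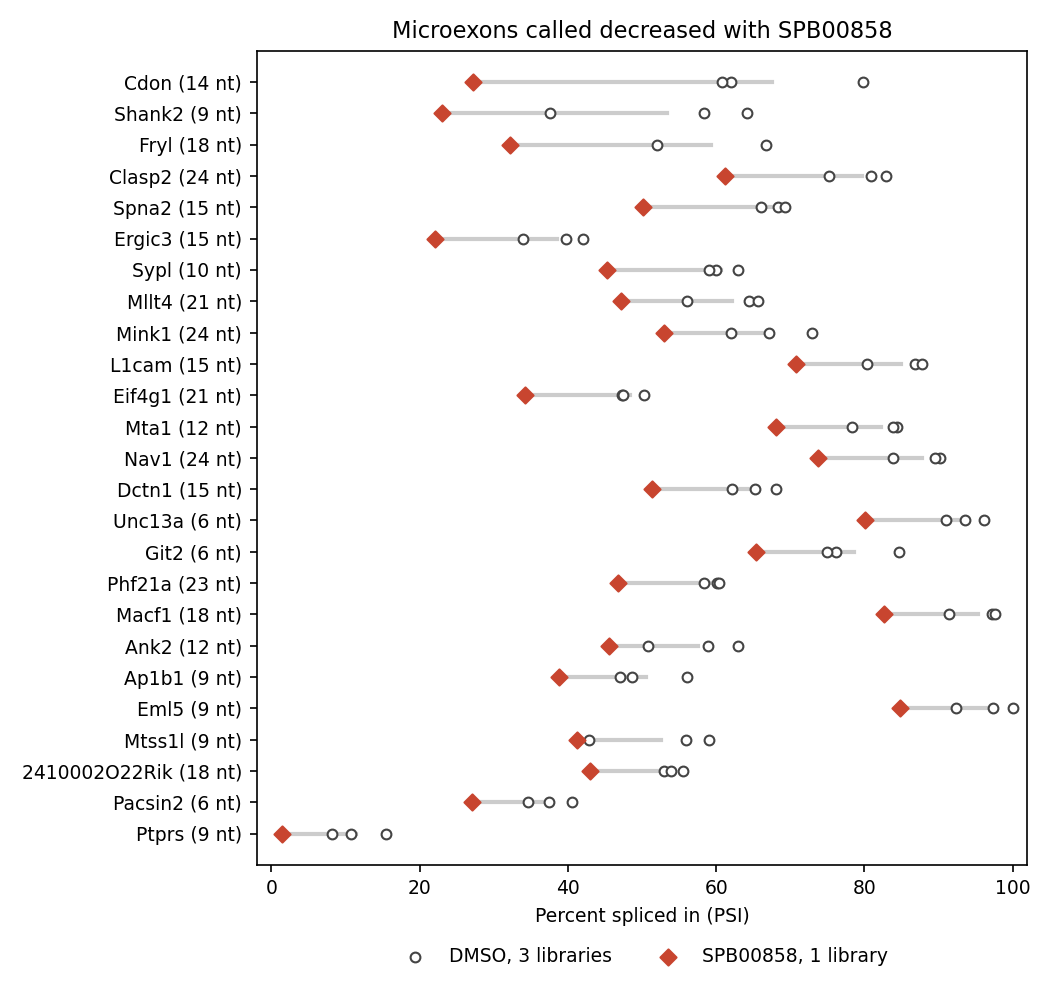
PSI (x axis, percent spliced in) of the 25 microexons called decreased (y axis, gene and exon length) in each DMSO library that passed the filters (open circles) and in the SPB00858 library (red diamonds). Grey lines join the DMSO mean and the SPB00858 value, and in all 25 exons SPB00858 is below every DMSO library. The exons were chosen for lying at least 10 PSI below the mean of these DMSO libraries.

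The exons behind this result are shown first as sequence. Of the 32 called microexons, 23 could be matched to an exon of the GENCODE vM21 mouse transcripts by chromosome, strand, exon length and the lengths of both neighbouring introns, and all 23 were coding. Below are 9 of the 12 decreased microexons with the largest differences, followed by Zfyve27, which was called increased, and by Mef2d and Psap, whose microexons are described further on. Each line is written 5′ to 3′ along the mature transcript, with the microexon in capitals and 15 nt of each neighbouring exon in lower case.
Shank2 (9 nt): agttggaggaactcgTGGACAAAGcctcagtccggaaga
Fryl (18 nt): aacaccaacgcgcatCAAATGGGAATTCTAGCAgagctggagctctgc
Clasp2 (24 nt): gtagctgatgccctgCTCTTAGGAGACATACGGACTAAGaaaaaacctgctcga
Spna2 (15 nt): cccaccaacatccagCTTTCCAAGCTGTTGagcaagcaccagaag
Ergic3 (15 nt): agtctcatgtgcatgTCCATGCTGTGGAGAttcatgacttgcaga
Mllt4 (21 nt): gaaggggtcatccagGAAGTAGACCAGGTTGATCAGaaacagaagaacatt
Mink1 (24 nt): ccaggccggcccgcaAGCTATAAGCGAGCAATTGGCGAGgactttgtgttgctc
L1cam (15 nt): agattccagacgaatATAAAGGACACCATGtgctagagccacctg
Eif4g1 (21 nt): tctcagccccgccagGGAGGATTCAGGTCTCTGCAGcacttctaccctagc
Zfyve27 (21 nt): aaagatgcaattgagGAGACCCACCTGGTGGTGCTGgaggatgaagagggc
Mef2d (21 nt): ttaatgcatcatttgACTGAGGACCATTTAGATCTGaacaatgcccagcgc
Psap (9 nt): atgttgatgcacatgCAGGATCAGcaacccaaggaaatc

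Cdon (14 nt), Sypl (10 nt) and Mta1 (12 nt), also among the 12 largest decreases, were not matched and are not printed. The lengths of Cdon and Sypl are not multiples of 3. All 12 printed exons have lengths that are multiples of 3. Among the 25 decreased microexons 22 had such a length, and 16 were no longer than 15 nt, with a range of 6 to 24 nt. Of all 605 detected microexons, 452 had such a length and 315 were no longer than 15 nt. Of the 160 with a DMSO PSI of 10 to 90, the numbers were 145 and 67. The DMSO PSI of the 25 decreased microexons ran from 11.4 to 96.6 with a median of 62.1, and their median difference with SPB00858 was -14.1 PSI. The reads behind the SPB00858 values ran from 22 to 2021 with a median of 187, so the precision differed widely from exon to exon. Where an interval is given below, it is the 95% Wilson interval of the SPB00858 value on its reads, and it covers counting error only, since the reads carry no molecular identifiers.

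Cdon, a cell-surface protein that binds Hedgehog ligands, held the decreased microexon with the largest difference (14 nt, chr9:35283315-35283328 in mm9). Its PSI was 62.0, 60.8 and 79.8 in DMSO libraries A, B and C and 27.2 with SPB00858 (18.2 to 38.5, 71 reads), a difference of -40.3. The DMSO libraries had an SD of 10.6 (n = 3), with library C highest, and SPB00858 was below all of them. Shank2, a scaffold of the postsynaptic density, followed with its 9 nt microexon (chr7:151582543-151582551), at 58.3, 64.1 and 37.6 in DMSO and 23 with SPB00858 (10.3 to 43.7). That interval rests on 22 reads and contains the value of DMSO library C, so this call is among the least precise of the set. In Fryl, a relative of the Furry protein, the 18 nt microexon (chr5:73416010-73416027) was at 52.0 and 66.7 in DMSO libraries A and B, did not pass in C, and was at 32.2 with SPB00858 (23.3 to 42.6, 87 reads).

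Clasp2, which binds growing microtubule ends, had its 24 nt microexon (chr9:113787868-113787891) at 82.9, 80.9 and 75.2 PSI in DMSO and 61.2 with SPB00858 (52.6 to 69.1, 130 reads). Spna2, listed as Sptan1 in GENCODE and encoding the alpha spectrin of the membrane skeleton, was better covered, with 1206 reads. Its 15 nt microexon (chr2:29869678-29869692) was at 68.3, 69.3 and 66.1 in DMSO and 50.1 with SPB00858 (47.3 to 52.9), a difference of -17.8 against a DMSO SD of 1.7 (n = 3). Mllt4, or Afdn, encodes afadin, which ties adhesion receptors to actin, and its 21 nt microexon (chr17:13985362-13985382) was at 56.1, 64.5 and 65.7 in DMSO and 47.1 with SPB00858 (42.4 to 51.8, 433 reads). The 15 nt microexon of the neural adhesion molecule L1cam (chrX:71112361-71112375) was at 80.3, 86.8 and 87.8 in DMSO and 70.8 with SPB00858 (62.9 to 77.6, 143 reads). In each of these genes the SPB00858 library was below all of the DMSO libraries, and for Clasp2, Spna2, Mllt4 and L1cam the whole interval was too.

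Ergic3, a membrane protein of the pathway between endoplasmic reticulum and Golgi, had its 15 nt microexon (chr2:155841113-155841127) at 33.9, 39.8 and 42.0 PSI in DMSO and 22.1 with SPB00858 (18.4 to 26.2, 433 reads). The 10 nt microexon of Sypl, a vesicle protein related to synaptophysin (chr12:33653499-33653508), was at 60, 59.0 and 62.9 in DMSO and 45.3 with SPB00858 (38.9 to 51.8, 226 reads). Both were separated from DMSO by more than 3 times the SD of the DMSO libraries, which was 4.2 for Ergic3 and 2.0 for Sypl (n = 3 each).

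Mink1, a kinase of the Ste20 family, had its 24 nt microexon (chr11:70422910-70422933) at 72.9, 67.1 and 62.0 in DMSO and 52.9 with SPB00858 (45.2 to 60.5, 161 reads). That value was also lower than in all 30 libraries of the other 26 compounds, which ran from 56.8 to 91.8 with a median of 81.4. Eif4g1, the scaffold of the cap-binding complex in translation initiation, had the best covered of the called microexons, with 2021 reads. Its 21 nt exon (chr16:20674859-20674879) was at 47.3, 47.5 and 50.2 in DMSO and 34.2 with SPB00858 (32.1 to 36.3), a difference of -14.2 against an SD of 1.6. Mta1, a subunit of the NuRD deacetylase complex, had its 12 nt microexon (chr12:114373012-114373023) at 78.4, 84.4 and 83.9 in DMSO and 68.1 with SPB00858 (63.7 to 72.2, 466 reads). The intervals of Mink1, Eif4g1 and Mta1 all ended below the lowest DMSO library.

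The other 13 decreased microexons differed by -10 to -14.1 PSI. They lay in Nav1, Dctn1, Unc13a, Git2, Phf21a, Macf1, Ank2, Ap1b1, Eml5, Mtss1l, 2410002O22Rik (Trappc13), Pacsin2 and Ptprs. Unc13a, which primes synaptic vesicles for release, had its 6 nt microexon at 93.6, 91.0 and 96.1 in DMSO and 80.1 with SPB00858 (75.1 to 84.3, 288 reads). The 30 other compound libraries ran from 80.3 to 100, and T5985871 at 80.3 and AW00693 at 80.8 were level with SPB00858. Dctn1, the large subunit of the dynein activator dynactin, was at 68.1, 62.2 and 65.3 in DMSO and 51.4 with SPB00858 for its 15 nt microexon. The 6 nt microexon of Pacsin2, a membrane-bending protein of endocytosis, had 1322 reads and was at 37.5, 34.6 and 40.5 in DMSO and 27.1 with SPB00858. Ptprs, a receptor tyrosine phosphatase, was closest to the limit at 15.4, 10.7 and 8.2 in DMSO and 1.4 with SPB00858. In Mtss1l the SPB00858 value of 41.2 was only just under DMSO library A at 42.8, with libraries B and C at 55.9 and 59.1.

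Just outside the 10-point limit were further microexons that also lay below every DMSO library. The 9 nt microexon of Ptk2, the focal adhesion kinase, was at 93.6, 91.9 and 92.0 in DMSO and 82.6 with SPB00858. Ckap5, which promotes microtubule growth, had a 24 nt microexon at 44.0, 45.3 and 44.9 in DMSO and 35.5 with SPB00858. Picalm, a clathrin assembly protein, had one of 24 nt at 30.5, 34.6 and 33.6 in DMSO and 24.5 with SPB00858. These exons were not called because the differences of -9.9, -9.2 and -8.4 PSI were too small, although the libraries did not overlap.

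The 7 microexons called increased were fewer and less precisely measured. Hook2, of the Hook family of dynein adaptors, had a 6 nt microexon at 72.3 and 69.0 PSI in DMSO libraries A and B, and at 95.4 with SPB00858 (78.2 to 99.2, 22 reads). Ppfia2, or liprin alpha 2, an organiser of the presynaptic active zone, was at 15, 21.5 and 15.9 in DMSO and 35.2 with SPB00858 (25.3 to 46.7, 73 reads) for its 9 nt microexon. Over the other compound libraries the median was 69.6 for Hook2, between its DMSO values. For Ppfia2 it was 38.7, above both DMSO and SPB00858. The 3 nt exon of 1700106N22Rik (Camkmt, a methyltransferase of calmodulin) was at 0.0, 5.4 and 0.0 in DMSO and 18 with SPB00858 (10.3 to 29.5, 60 reads), above all 30 other compound libraries. These 3 intervals all started above the highest DMSO library.

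Zfyve27, or protrudin, a protein of neurite outgrowth, was at 46.7, 37.5 and 47.4 in DMSO and 58.6 with SPB00858 (50.3 to 66.4, 139 reads) for the 21 nt microexon printed above. Sh3glb2, an endophilin, was at 26.7, 17.9 and 9.1 in DMSO and 29 with SPB00858 (24.2 to 34.4, 302 reads) for its 12 nt microexon. Without DMSO library C the difference of Sh3glb2 was 6.8 PSI and it was not called.

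**Figure D2:**
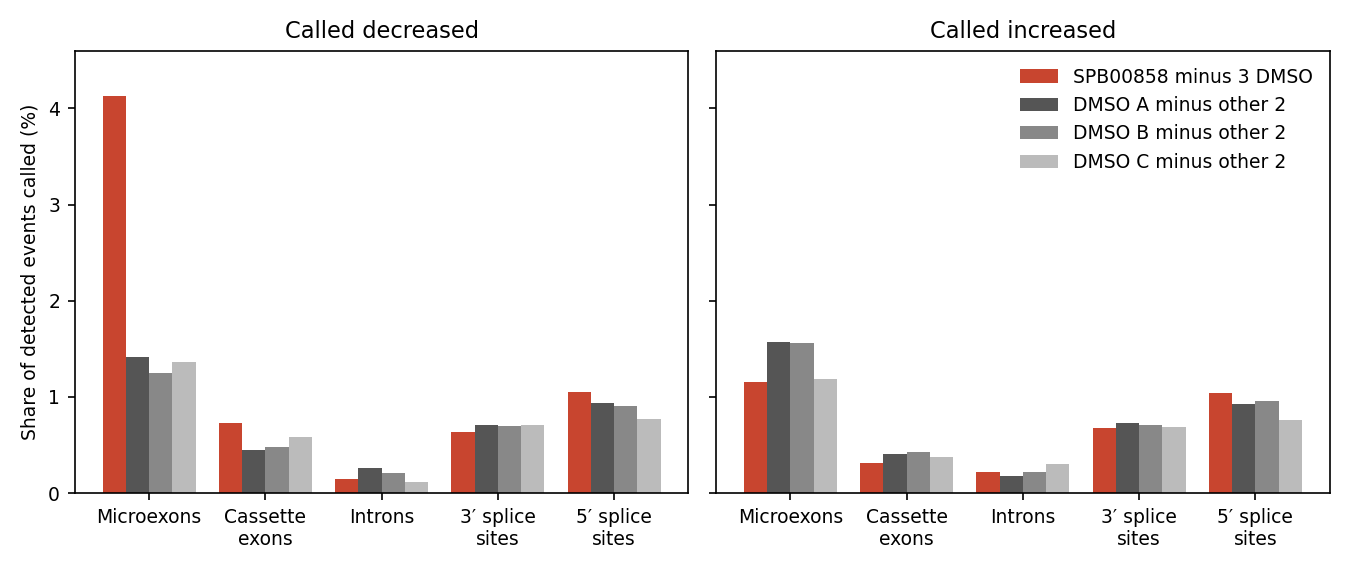
Share of detected events (y axis, percent) called decreased (left panel) or increased (right panel) for each event type (x axis), in the SPB00858 library minus the 3 DMSO libraries (red) and in each DMSO library minus the other 2 (greys). The red bar for decreased microexons is at 4.13%, against 1.25 to 1.42% for the DMSO libraries.

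The decreased share was also set against longer exons of the same starting level, since most exons of over 27 nt are included nearly always. Among exons with a DMSO mean PSI of 10 to 90 there were 160 microexons and 2736 cassette exons, 2896 in all. Of these 2896 exons, 34.4% were below every DMSO library with SPB00858 and 25.8% above every one, while 8.29% were called decreased and 6.35% increased. For the 160 microexons the shares were 52.5% below and 15% above, with 22 called decreased (13.8%) and 6 increased (3.75%), and a median difference of -3.67 PSI. The 2736 cassette exons had 33.4% below and 26.5% above, 218 called decreased and 178 increased, and a median difference of -0.61 PSI. Each DMSO library minus the other 2 gave median differences of -0.22 to 0.47 PSI over microexons chosen in the same way.

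By length, the share of these exons below every DMSO library was 58.2% at 3 to 15 nt (67 exons), 48.4% at 16 to 27 nt (93), 39.1% at 28 to 50 nt (258) and 31.6% at 51 to 100 nt (1067). It was 33% above 100 and up to 200 nt (1154) and 36.6% above 200 nt (257). The shares above every DMSO library were lowest for the short exons, at 16.4% and 14% in the microexon classes, and were 20.2% to 29.4% in the longer ones. Exons are not replicates of the treatment, and these shares describe the single SPB00858 library.

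**Figure D3:**
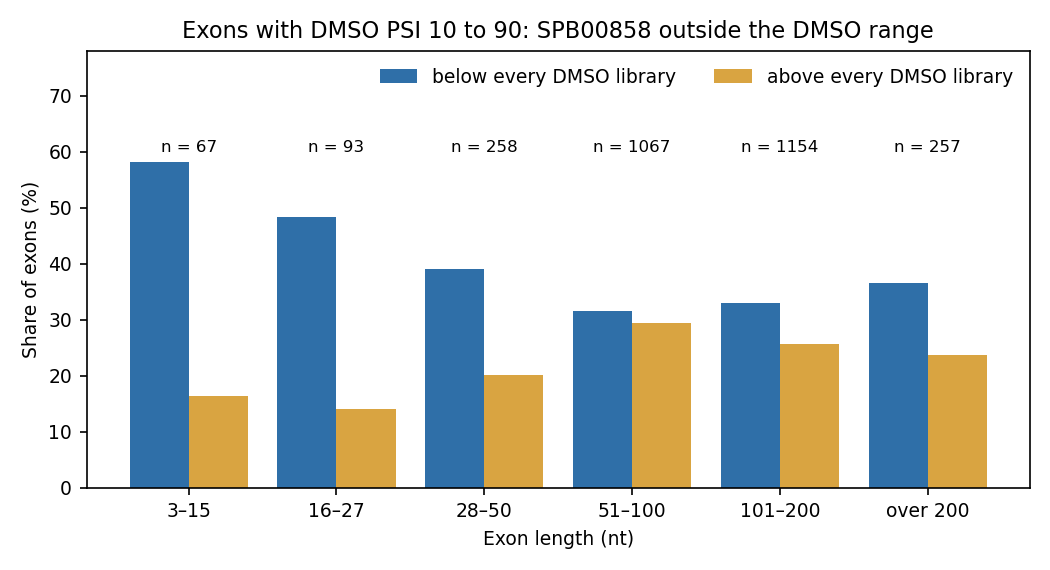
Share of exons with a DMSO mean PSI of 10 to 90 (y axis, percent) whose SPB00858 value lay below (blue) or above (yellow) every DMSO library, by exon length (x axis, nt), with the number of exons above each pair of bars. The blue bars fall from 58.2% at 3 to 15 nt to 31.6% at 51 to 100 nt.

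A test that uses the spread between libraries was fitted with limma on log2 ratios of inclusion to exclusion reads, over SPB00858, the 3 DMSO libraries and the 8 libraries of the HDAC inhibitors vorinostat, CI-994, BRD6688 and BRD4884 (24 h, 2 libraries each). In it the single SPB00858 library is assumed to vary like the replicated groups. Over all 197385 events, 0 passed an adjusted p of 0.05 (0.0%), and 8515 had an unadjusted p below 0.05 (4.31%), of which 39 were among the 605 microexons, 26 lower and 13 higher. This contrasts with the posterior calls above, which take only read counting into account.

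A further limma fit, added after the data had been examined, kept the 9972 events with DMSO read ratios equivalent to PSI 10 to 90 and weighted each ratio by its reads. In this fit 20 events passed an adjusted p of 0.05 (0.201%), 16 lower and 4 higher, of which 16 also differed by at least 10 PSI. Of the 162 microexons in the fit, 33 had an unadjusted p below 0.05 (20.4%), 32 lower and 1 higher, beside 615 of all 9972 events (6.17%). Without DMSO library A, B or C the fit called 12, 12 and 17 events, and 11 events were called in all 4 fits. The 9972 events include introns and splice sites. Among cassette exons in this fit, the share with an unadjusted p below 0.05 lay between that of microexons and that of all events. As the fit was added after the data had been examined, the events named from it in the next paragraphs were chosen after their values were seen.

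Of the 20 events, 3 were microexons, all of them lower and all called in each of the 4 fits. Spna2 and Eif4g1, given above, had adjusted p = 0.00178 and 0.00394 (limma, Benjamini-Hochberg). Psap, the precursor of the lysosomal saposins, was the third, with the 9 nt microexon printed above (chr10:59760285-59760293). Its PSI was 45.7, 44.9 and 45.8 in DMSO and 38.1 with SPB00858 (37.1 to 39.2, 8100 reads, limma adjusted p = 0.00394). The Psap difference of -7.3 PSI was under the 10-point limit but was large beside a DMSO SD of 0.5.

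Longer exons also passed this fit. Eif4h, a cofactor of the initiation helicase, had a 60 nt exon (chr5:135100311-135100370) at 50.3, 48.0 and 48.9 PSI in DMSO and 34.4 with SPB00858 (33.2 to 35.7, 5317 reads), with limma adjusted p = 0.00093. This was lower than in all 30 libraries of the other compounds, where the range was 38.1 to 68.4. Hnrnpa2b1, a splicing repressor, was at 66.8, 65.2 and 64.2 in DMSO and 57.0 with SPB00858 for a 120 nt exon, and Mrpl30, a mitochondrial ribosomal protein, was at 67.9, 68.6 and 68.7 and at 58.0 for one of 81 nt. The SPB00858 values of all 3 exons were below every DMSO library.

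Tub, the tubby protein, had the lowest adjusted p of all (0.000694, limma) for a 168 nt exon (chr7:116168004-116168171) at 82.3, 82.5 and 82.6 in DMSO and 67.2 with SPB00858 (65 to 69.4, 1762 reads). Frmd4a, a FERM domain protein of cell polarity, had a 72 nt exon at 59.9, 59.4 and 63.6 in DMSO and 40.1 with SPB00858, below all 30 other compound libraries (51.1 to 80.7). Pcm1, a scaffold of centriolar satellites, was at 63.2, 64.1 and 63.0 in DMSO and 49.2 with SPB00858 for a 117 nt exon. Bcs1l, which assembles respiratory complex III, was at 89.3, 88.6 and 84.4 in DMSO and 71.0 with SPB00858 for a 195 nt exon, again below all 30 other libraries (81.5 to 100). Tub, Frmd4a and Pcm1 passed in all 4 fits, and Bcs1l did not.

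Exons that were higher in this fit were those of Ktn1, App and Zc3h11a. Ktn1, or kinectin, a membrane anchor of kinesin, had a 72 nt exon (chr14:48345604-48345675) at 42.7, 44.4 and 49.1 in DMSO and 67.2 with SPB00858 (63.8 to 70.4, 779 reads, limma adjusted p = 0.00394). No other compound library reached that level, the highest being 60.8. The 168 nt exon of App, the amyloid precursor protein, was at 49.9, 51.8 and 49.0 in DMSO and 60.4 with SPB00858 (58.9 to 61.9, 4087 reads), and the 54 nt exon of Zc3h11a, an mRNA export factor, was at 35, 36.3 and 32.9 and at 57.4 (52.7 to 62.0). Zc3h11a too was above all other compound libraries in which it was detected (27), where the highest value was 47.1. For App the 30 other compound libraries ran from 48.0 to 73.2 with a median of 58.1, so its SPB00858 value was within their range. The only intron that passed was 183 nt long and lay in Apex1, an endonuclease of base excision repair, at 15.5 and 15.7 in DMSO libraries B and C and 28.5 with SPB00858. Of these, Ktn1 alone passed in all 4 fits.

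The exons that the study built reporters on or followed by RT-PCR were mostly inside the 10-point limit. The 21 nt microexon of Mef2d (chr3:87965703-87965723), a transcription factor of the MEF2 family and the reporter exon of the screen, was at 89.5, 88.7 and 88.7 PSI in DMSO and 83.0 with SPB00858 (78.1 to 87.0, 275 reads). It was not called, and its p in the read-weighted limma fit was 0.0638 unadjusted and 0.832 adjusted. A longer Mef2d exon of 138 nt (chr3:87961956-87962093) was called, at 62.0, 63.4 and 63.7 in DMSO and 43.1 with SPB00858 (38.4 to 47.9, 410 reads, limma adjusted p = 0.0488). That exon passed in the fit with all libraries but not in all 4 fits.

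Of the other microexons in these genes, those of Ergic3 and Shank2 were called, as given above. The 21 nt microexon of Mast2, a kinase of the microtubule-associated family, was at 47.0, 48.9 and 33.3 in DMSO and 33.5 with SPB00858. It was not called with all DMSO libraries and was called at -14.5 PSI without DMSO library C, which was level with SPB00858. The 12 nt microexon of Zmynd8, a chromatin reader, was at 52.2, 53.4 and 49.2 in DMSO and 45.4 with SPB00858, that of Lphn2 (12 nt), an adhesion receptor, at 17, 15.1 and 18.5 and at 23.3, and that of Trappc9 (27 nt), a traffic complex subunit, at 29.7, 31.6 and 33.2 and at 36.6. None of these 3 was called, with Zmynd8 below and Lphn2 and Trappc9 above the DMSO range. The detected exons of Mgrn1, Asph and Zdhhc20 were not called, and their SPB00858 values differed from the DMSO means by -8.0 to -1.0 PSI. No exon of Rest met the rule.

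Microexons were also grouped by the known roles of their genes. The groups stand beside all 605 detected microexons, of which 25 were called decreased (4.13%) and 7 increased (1.16%), with a median difference of -0.003 PSI. In endocytosis and vesicle traffic, 22 microexons were detected, of which 1 (Ergic3) was called decreased and 1 (Sh3glb2) increased, with a median difference of -1.99 PSI. In chromatin and transcription there were 13, with 2 decreased and 0 increased and a median of -2.61. The 2 were Phf21a, a subunit of the LSD1 demethylase complex, and Nav1, which the list holds although it is known as a neuron navigator protein of microtubules, so 1 of the 2 is a chromatin gene. In adhesion, cytoskeleton and signalling there were 53, with 6 decreased (Ank2, Cdon, Clasp2, L1cam, Macf1, Ptprs) and 2 increased, Ppfia2 among them, and a median of -0.96. Among members with a DMSO PSI of 10 to 90 the medians were -4.15, -4.13 and -4.28 PSI for the 3 groups, beside -3.67 over all 160 such microexons.

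For the decreased microexons the corresponding PSI in the inhibitors AW00693, JFD00822 and T5985871 was set beside that of SPB00858, with 1 library each. All were measured against the same DMSO libraries, and their doses are not matched here, so the values are given without a comparison. The Eif4g1 microexon was at 15.4 with AW00693, 37.7 with JFD00822 and 11.5 with T5985871, beside 34.2 with SPB00858. The Spna2 microexon was at 48.3, 61.8 and 52.8 in that order, beside 50.1. Mink1 was at 59.4, 66.1 and 71.0, beside 52.9, and the 21 nt Mef2d microexon at 70.0, 84.0 and 54.6, beside 83.0.

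The count of decreased microexons for the 10 compounds that the study classed as inhibitors ran from 19 of 607 for JFD00822 (3.13%) to 124 of 588 for AW00693 (21.1%). SPB00858 had 25 of 605, and T5985871 had 118 of 545 (21.7%). Over the other 26 compounds, activators included, the counts ran from 2 to 124.

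**Figure D4:**
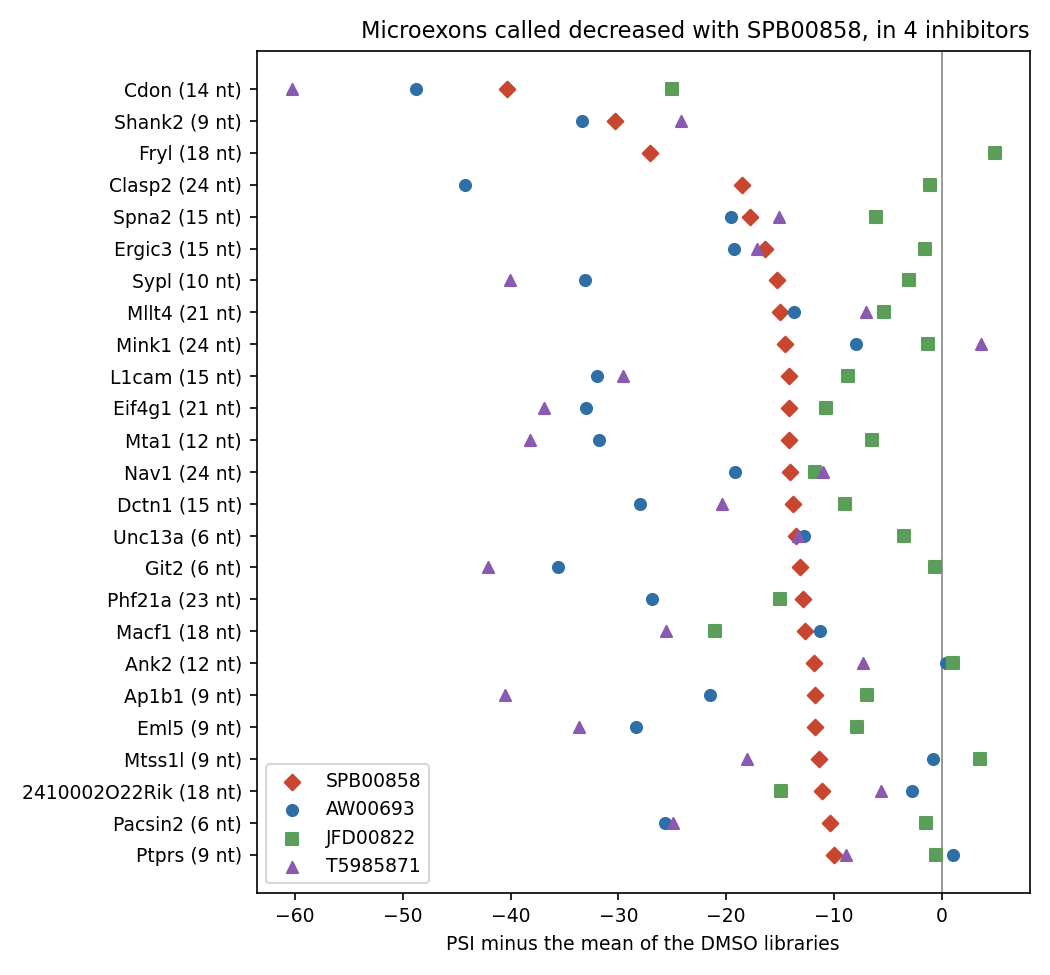
Difference in PSI from the mean of the DMSO libraries (x axis) for the 25 microexons called decreased with SPB00858 (y axis), in the libraries of SPB00858 (red diamonds), AW00693 (blue circles), JFD00822 (green squares) and T5985871 (purple triangles). The exons were chosen for their SPB00858 values, which run from -40.3 in Cdon to -10 in Ptprs, and all compounds share the DMSO libraries.

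Cassette exons, those of more than 27 nt, were called decreased in 417 of 57034 cases (0.731%) and increased in 181 (0.317%). The DMSO libraries among themselves gave 270 to 326 decreased and 209 to 253 increased, and SPB00858 against 2 DMSO libraries at a time gave 436 to 476 decreased and 209 to 250 increased. The decreased counts were above the DMSO range. Of the increased counts, the 181 was below that range and those against 2 DMSO libraries at a time were inside it. Arhgap39, a GTPase-activating protein, had the best covered of the 10 largest decreases. Its 93 nt exon (chr15:76560794-76560886) was at 60.2, 60.6 and 63.2 PSI in DMSO and 32.3 with SPB00858 (26.3 to 38.9, 207 reads), with limma adjusted p = 0.0327 in the read-weighted fit of all libraries, a call that did not hold in all 4 fits. The lowest value among the 30 other compound libraries was 40.2.

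The largest of the cassette exon decreases rested on fewer reads. Stard13, also a GTPase-activating protein, was at 95.3 and 100 in DMSO libraries A and C and 57.0 with SPB00858 (42.4 to 70.5, 44 reads) for its 64 nt exon. Lmbr1l, a membrane receptor, was at 100 in all of the DMSO libraries and 62.3 with SPB00858 (49.2 to 73.8, 56 reads) for an 84 nt exon, below all other compound libraries in which it was detected (73.1 to 100). The signalling regulator Rgs12 was at 75.2, 73.7 and 83.6 in DMSO and 45.9 with SPB00858 (34.1 to 58.2, 62 reads). Tnfrsf22, Rnf111, Rnf32, 6330439K17Rik, Fggy and Mzf1 completed these 10, with differences of -32.6 to -26.2 PSI on 24 to 68 reads. Without DMSO library B the difference of 6330439K17Rik was -13.7 PSI and it was not called.

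Among the increased cassette exons, Klhl24, an adaptor of a ubiquitin ligase, was at 54.3, 66.2 and 67.2 in DMSO and 90.9 with SPB00858 (84.6 to 94.8, 126 reads). Nav3, a neuron navigator protein, was at 49.5, 41.2 and 51.5 in DMSO and 75.6 with SPB00858 (64.6 to 84.1, 72 reads). Svop, a protein of synaptic vesicles, was at 39.2, 44.1 and 43.7 in DMSO and 68.4 with SPB00858 (56.3 to 78.5, 64 reads). The intervals of Klhl24, Nav3 and Svop lay above all of the DMSO libraries. Over the other compound libraries in which they were detected, their medians were 73.6, 65.6 and 48.3, also above every DMSO library. The highest of those libraries were at 91.7, 87.7 and 75.3, above SPB00858. The flippase Atp8a1 was at 32.4, 52.2 and 40.9 in DMSO and 64.9 with SPB00858, and 4930534B04Rik (Cep128), Dtwd2, Armcx1, Rnf213, Zc3h11a and Pitpnm2 completed the list with differences of 21.8 to 25.5 PSI.

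Of 87355 introns, 126 were called less retained (0.144%) and 192 more retained (0.22%), whereas the DMSO libraries gave shares of 0.118 to 0.261% and 0.181 to 0.299%. Against 2 DMSO libraries at a time SPB00858 gave 0.178 to 0.207% less and 0.221 to 0.244% more retained, inside both DMSO ranges. The introns called more retained had a median length of 310 nt and the less retained ones 375 nt, against 1278 nt for all, with medians of 28 and 32 reads. Their median retention in DMSO was 7.28 and 20.46%, against 0.13% for all introns. The lengths were therefore not compared at a like starting level. Prpf40b, a factor associated with the U1 snRNP, had a 144 nt intron retained at 28.9, 24.2 and 31% in DMSO and 60% with SPB00858 (40.4 to 76.9, 24 reads). Ache, or acetylcholinesterase, had a 779 nt intron at 44.4 and 38.8% in DMSO libraries A and B and 12.5% with SPB00858 (4.6 to 29.7, 27 reads). The named introns rested on 22 to 40 reads each.

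Lrrc16b (Carmil3, a regulator of actin capping) and Wdr90, a protein of centrioles, each had 4 introns called more retained, and the lipid transporter Abca7 had 3, with another Abca7 intron called less retained. The 100 nt intron of Lrrc16b was at 7.4, 10.0 and 3.3% in DMSO and 33.3% with SPB00858 (20.8 to 48.8, 40 reads), above all 30 other compound libraries. The 81 nt intron of Usp53 was at 18.4, 24.2 and 26.8% in DMSO and 54.8% with SPB00858 (35.7 to 72.7, 24 reads), also above all 30. Without DMSO library A the introns of Slc35b3, Mdm4 and Hpca were no longer called, at differences of 16.6, -24.3 and -21.7 points.

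For alternative 3′ splice sites, 192 of 30259 were called less used (0.635%) and 204 more used (0.674%), and the DMSO libraries gave 207 to 223 and 200 to 228, while SPB00858 against 2 DMSO libraries at a time gave 214 to 239 and 221 to 237, which overlap those ranges. For alternative 5′ splice sites, 233 of 22132 were less used (1.05%) and 230 more used (1.04%), beside 163 to 217 and 162 to 221 among DMSO libraries and 242 to 262 and 242 to 269 for SPB00858 against 2 DMSO libraries at a time, which were above them. The 859 called sites belonged to 460 events, because use of competing sites moves in opposite directions. Dynlrb1, a light chain of dynein, used the longer of a pair of 5′ sites 4 nt apart at 54.2 and 49.3% in DMSO libraries A and B and 14.6% with SPB00858 (5.6 to 33.1, 25 reads). Ss18l1, a subunit of a neuronal chromatin remodelling complex, used a 5′ site that lengthens the exon by 32 nt at 2.0 and 0.0% in DMSO and 34.4% with SPB00858 (20.4 to 51.7, 32 reads). Neither passed in DMSO library C. The other named sites lay in Rpl10a, 4930422G04Rik, Mul1, Cux2 and Ak4, and of these the 5′ site of Mul1 was at 36.7 and 69.4% in DMSO libraries A and B and 82.3% with SPB00858, and was not called without library A, at a difference of 12.9 points. In Rpl10a, which encodes a ribosomal protein, DMSO library A stood apart at 15%, beside 54.1 and 51.2% in B and C and 70.7% with SPB00858.

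Gene expression was nearly level between the conditions. Here each condition had 1 RPKM value, and the value for DMSO is the authors' pooled one, so there is no replicate check and no test, and in such bulk RNA fewer cells that express a gene cannot be told apart from less RNA of it per cell. Ratios are log2 of RPKM plus 0.5, SPB00858 to DMSO, which understates the ratios of low genes. Of 52661 genes, 9541 were above 5 RPKM in either condition, with a median log2 ratio of -0.021, and 98.2% of them were within 1.5-fold. Above 2-fold, 36 genes were higher (0.377%) and 31 lower (0.325%), and above 1.5-fold, 85 were higher (0.891%) and 87 lower (0.912%). The median absolute log2 ratio of 0.102 was the smallest of the 27 compounds, followed by 0.104 for RH01954, and the largest was 0.741 for CI-994.

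Most of the genes past 2-fold were of kinds that polyA RNA-seq and transcript estimates measure poorly. Among the 36 higher genes, 10 were processed pseudogenes, 9 miRNA genes, 8 snoRNA genes and 3 protein-coding genes. The 31 lower genes held 11 snoRNA, 5 miRNA, 4 snRNA and 4 processed pseudogene entries and 1 protein-coding gene. Reads of processed pseudogenes such as Rpl14-ps1, at 32.22 RPKM in DMSO and 208.85 with SPB00858, can be shared with the parent gene, so such values are uncertain.

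The protein-coding genes past 2-fold were Hr, Pet117 and Zfp865, which were higher, and Rsc1a1, which was lower. Hr, the hairless corepressor of nuclear receptors, was at 3.15 RPKM in DMSO and 7.58 with SPB00858 (log2 ratio 1.15), above all 26 other compounds, which ran from 1.04 to 5.61. Pet117, an assembly factor of cytochrome c oxidase, was at 3.18 and 7.44 RPKM (1.11), and the highest of the other compounds was level with it at 7.42. The zinc finger gene Zfp865 was at 12.09 and 25.06 RPKM (1.02), and Rsc1a1 was at 12.47 and 5.41 RPKM (-1.13), within the range of 0.0 to 13.28 of the other compounds.

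Below that limit, Dbh, which makes noradrenaline from dopamine, was at 11.41 RPKM in DMSO and 19.95 with SPB00858 (log2 ratio 0.78). Tph1, the rate-limiting enzyme of serotonin synthesis outside the brain, was at 3.79 and 7.08 RPKM (0.82), and Kmt2a, a histone H3 methyltransferase, at 10.97 and 18.24 (0.71). For these genes the other compounds reached as high as 47.57, 13.66 and 32.12 RPKM. Of the lower genes, Bc1, a noncoding RNA of neuronal dendrites, was at 55.06 and 32.49 RPKM (-0.75), and Mef2b, a relative of Mef2d, at 5.22 and 2.90 (-0.75). The remaining genes named by rank had log2 ratios of 0.64 to 0.85 (Tceanc2, Sgms2, Oprl1, Lgals7, Fxyd5, Dlc1, Ndst2, Atxn7l2 and Fam168a) and of -0.64 to -0.91 (Mettl20, Zfp58, Aamdc, Tcea2, Pcbd2, Rab26os, S100a1, Zfp874b, Ilvbl, Spa17, D3Ertd751e and Phka2).

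**Figure D5:**
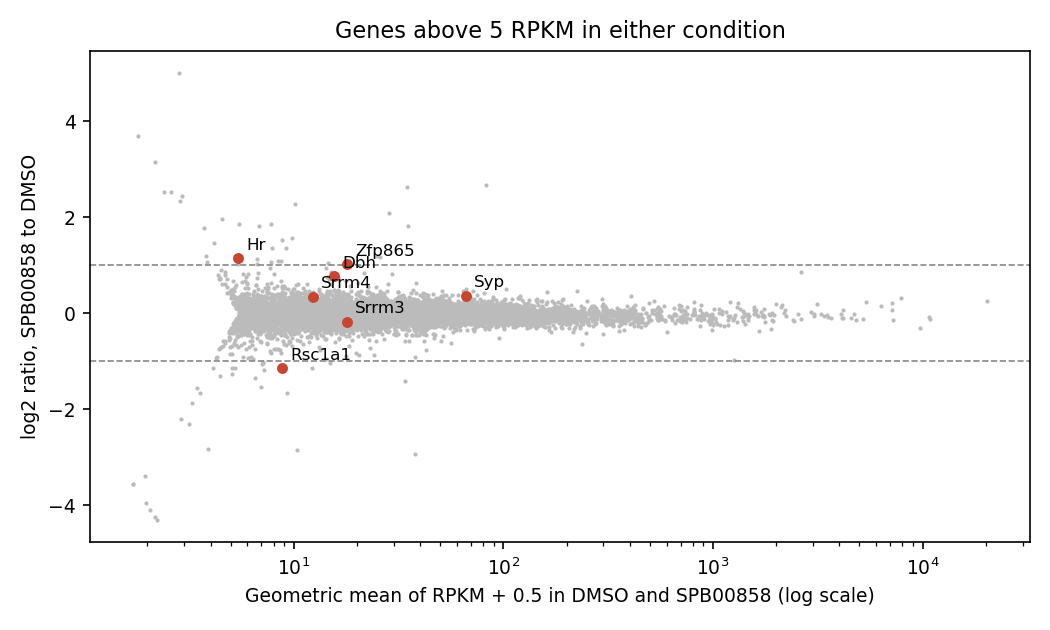
Log2 ratio of RPKM plus 0.5, SPB00858 to DMSO (y axis), against the geometric mean of both values (x axis, log scale), for the 9541 genes above 5 RPKM in either condition (grey points, 1 per gene). Dashed lines mark 2-fold, with 36 genes above and 31 below, and red points name 7 genes given in the text.

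Of 24 known regulators of microexons and of neuronal splicing above 5 RPKM, 0 passed 1.5-fold in either direction, 12 had ratios above 0 and 11 below, and the median was 0.01. With 0.891% and 0.912% of all 9541 genes past 1.5-fold, 0 of 24 is a count near the background. Srrm4, the main activator of neuronal microexons, had the highest ratio of the 24, at 10.42 RPKM in DMSO and 13.38 with SPB00858 (0.35), and its relative Srrm3 was at 18.49 and 16.38 (-0.17). Rbfox2, a regulator of many neuronal exons, was at 56.52 and 57.04 RPKM, and the repressor Ptbp1 at 476.41 and 479.84. Ptbp2 (88.96 and 79.19 RPKM) and Mbnl1 (94.00 and 83.64 RPKM) both had ratios of -0.17.

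SR proteins, hnRNPs and their kinases had a median log2 ratio of -0.12 over 27 genes, with 6 above 0 and 20 below and 0 past 1.5-fold. All 9541 genes had a median of -0.021 and a median absolute log2 ratio of 0.102. A shift of the list as a whole was not tested. Srsf1, a general activator of splicing, was lowest at 362.02 RPKM in DMSO and 303.21 with SPB00858 (-0.26), and the kinase Clk1 was highest at 32.17 and 37.22 (0.21). Hnrnpa2b1, whose 120 nt exon is given above, was at 1386.43 and 1222.87 RPKM (-0.18).

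Over 21 further lists of pathways, cell state and microexon-bearing genes, 1 gene passed 1.5-fold, which was Dbh in the list of neuronal and chromaffin lineage genes. That list had a median of 0.08 over 27 genes, and in it Syp, a synaptic vesicle protein, was at 57.76 RPKM in DMSO and 74.60 with SPB00858 (0.37), Gata3 at 7.34 and 10.69 (0.51) and Map2 at 52.18 and 43.41 (-0.26). Sterol synthesis had a median of 0.14 over 24 genes, with 20 above 0 and 4 below, and Fdps was highest in it at 121.43 and 141.60 RPKM (0.22). Whether the sterol genes moved together was not tested. The replication-dependent histones had a median of 0.19 over 8 genes, MAPK feedback genes 0.12 over 15, immediate early genes 0.06 over 14, the unfolded protein response 0.03 over 17 and the integrated stress response -0.05 over 23. Heat shock genes (16) and cytosolic ribosomal proteins (87) also had medians of -0.05, cell cycle genes (36) and Nrf2 targets (16) -0.04, oxidative phosphorylation genes (78) -0.06, and mitochondrially encoded messenger RNAs (13) -0.02.

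The lists of p53 targets (14 genes) and fatty acid synthesis (11) had medians of -0.0, hypoxia and glycolysis (23) -0.01, metal response (2) -0.1 and aryl hydrocarbon receptor targets (2) -0.27. Genes with neural microexons had medians of 0.04 (22 genes, endocytosis), 0.03 (13, chromatin) and 0.08 (30, adhesion and cytoskeleton). These medians stand beside the -0.021 of all 9541 genes.

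Host gene levels of the called microexons were compared in the same way. Over the 25 with a decreased microexon the log2 ratios ran from -0.14 to 0.45 with a median of 0.1 and 0 past 1.5-fold, and over the 7 with an increased one from -0.1 to 0.15. Eif4g1 was at 277.74 RPKM in DMSO and 317.23 with SPB00858 (0.19), Spna2 (Sptan1) at 119.83 and 133.35 (0.15) and Cdon at 4.95 and 5.35 (0.10). All 32 genes were within 1.5-fold, as were 98.2% of all genes above 5 RPKM.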

How the data were processed

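PolyA RNA-seq libraries of N2A cells were made by the authors with a kit that does not mark strand. They quantified splicing with vast-tools against mm9 and deposited PSI as a percent for each event and library, with a quality string that holds the inclusion and exclusion read counts. The deposited exon-event reads per library are given above. Transcripts were quantified by the authors with Salmon (0.10.2 in the submitters' processing notes, which also name edgeR) on GENCODE vM21, and the deposited RPKM table has 1 value per condition, with DMSO as the authors' pooled value. Columns holding the authors' own comparisons (log2 fold changes, p-values, FDR, significance, re-estimated PSI and calls) were not used. No value column lacked a sample or group (0).

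Exon and splice-site events needed a coverage score of LOW or better, and introns 15 reads and a balance p above 0.05, in SPB00858 and at least 2 DMSO libraries. Exons with a balance score needed OK or B1. Exons without one, as for microexons, passed on coverage alone, and splice sites had no balance filter. The posterior came from 2000 draws of beta distributions of the reads, with the DMSO draws averaged. limma 3.58.1 (R 4.3.3) was fitted to log2 ratios with 1 read added, and p-values were adjusted over all events of a fit by Benjamini-Hochberg. Scripts used Python 3.11.15 with numpy 2.4.6, pandas 2.3.3, scipy 1.17.1 and matplotlib 3.10.9, and were tested on simulated data, where the weighted fit of all events and the fit of SPB00858 and DMSO alone made more false calls than allowed. The study's methods describe 2 biological replicates for DMSO and for each HDAC inhibitor, whereas 3 DMSO libraries are labelled, and the labels do not say which share a culture, so part of the spread behind p-values may be technical. Alternatives tried were other limits, filters, fits and floors, and leaving out each DMSO library.

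Members and lists were chosen with earlier results of these data known. Events named are the exons studied by the authors and, among calls with 20 reads outside the DMSO range, 1 per gene by size of difference: 12 decreased and 6 increased microexons, 10 cassette exons each way, 6 introns each way and 5 splice sites each way. Genes named are the 15 largest log2 ratios each way above 5 RPKM and above 0 in both conditions, without mitochondrial, small RNA, predicted, ribosomal pseudogene and histone genes. Clone-named genes were also left out, which was decided after their values were seen. Exons named outside this rule were chosen after their values were seen. The lists comprised splicing regulators, SR proteins and hnRNPs, genes with neural microexons, the markers, and the stress, metabolic, cell cycle and lineage lists printed in the report. Some items that these rules select are not reported here.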

Additional observations from a re-analysis of the deposited data

How the results depend on the processing

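With a limit of 15 PSI the calls were 8 decreased and 3 increased microexons, 143 and 54 cassette exons, 92 more and 62 less retained introns, 141 sites at 3′ and 209 at 5′. Microexons of up to 15 nt alone gave 16 and 4. At a posterior of 0.99 the counts were 77 more and 48 less retained introns and 236 sites at 3′, with coverage of OK or better 86 and 69 introns, without the balance filter 348 and 240, and with overdispersed draws 117 and 75 introns and 248 sites at 3′. Leaving out each DMSO library in turn gave 27 to 32 decreased and 5 to 10 increased microexons, 436 to 476 and 209 to 250 cassette exons, 195 to 216 more and 157 to 183 less retained introns, 435 to 476 sites at 3′ and 484 to 524 at 5′. Of the 25 decreased microexons, 8 were shared at 15 PSI, 23 at a posterior of 0.99 and 22, 24 and 23 without DMSO library A, B or C.

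limma called 0 events over all libraries and 0 to 0 without each DMSO library, 182 with SPB00858 and DMSO alone, 138 with read weights, 7 among events of PSI 10 to 90 and 20 with read weights there (12 to 17 without each DMSO library). The first and second of these larger counts come from fits that over-called on simulated data. Genes higher and lower past 2-fold numbered 172 and 209 with a floor of 1 RPKM, 19 and 9 with one of 10 RPKM and 230 and 375 with none, and 85 and 87 passed 1.5-fold. Of the tested event values, 240 kept their side of the threshold, 8 lost it and 1 gained it, and 0 reversed. Apart from changes made by the construction of an alternative (fewer events or a higher limit), the cause was not tested. No paired analysis was possible because SPB00858 has 1 library and shares fewer than 2 replicate letters with DMSO. The depth of 49123479 exon-event reads and the single SPB00858 library limit every value, and events with few reads most.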
